A study of Rattus norvegicus with 21 samples.

Results

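In primary rat astrocytes given siRNA (small interfering RNA) to TDP-43, RNA bound by the J2 antibody was compared with the input RNA of the same treatment, over all repeat names in the deposited count table. The comparison set 3 libraries of J2-immunoprecipitated RNA against 3 of input RNA, 6 of the 21 libraries of the series, chosen by their column labels. The filter, the scaling factors and the spread were estimated with the 6 control libraries as well. Of 1275 repeat names, 1176 passed a filter on low counts and 99 did not. The cells were Sprague-Dawley astrocytes from neonatal pups at passages 2-3, and the siRNA was delivered by lipid transfection. The other groups used here were control cells (3 J2 and 3 input libraries, not labelled with any siRNA), and poly(A) RNA of cells given TDP-43 siRNA or scrambled siRNA (3 libraries each). The poly(A) fit also held 3 libraries of cells given TDP-43 siRNA and ATP. All cells came from the same kind of culture, no library of an antibody other than J2 was analysed here, and the labels do not say whether replicates were separate cultures, so the p-values speak to how far these libraries scatter and not, for certain, to biological variation.

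TDP-43, encoded by Tardbp, is a nuclear protein that binds UG-rich RNA and controls splicing. J2 is a monoclonal antibody that binds double-stranded RNA over a minimum length, whatever its sequence. Repeats can form such RNA when copies lie in opposite orientation in the same transcript, or when both strands are transcribed. SINEs are short retrotransposons transcribed by RNA polymerase III (the rodent B1 family descends from 7SL RNA, B2, B4 and ID from tRNA genes), LINE-1 elements encode their own reverse transcriptase, and LTR elements derive from retroviruses. The table also counts structural RNAs under repeat names. These are not transposable elements and fold into short helices. Whether helix length bears on their recovery by J2 was not tested.

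The BC1 RNA is an example of a structural RNA that shares sequence with a repeat. BC1 is a neuronal non-coding RNA whose start is an ID element, and the stretch below, from RefSeq (GRCr8, chr1:209502847-209502946, plus strand), is given because ID and BC1 names can share reads; capitals mark transcribed bases.

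Bc1: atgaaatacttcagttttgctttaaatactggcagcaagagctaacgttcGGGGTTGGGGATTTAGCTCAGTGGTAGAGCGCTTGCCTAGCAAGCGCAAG

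The first 20 transcribed bases (GGGGTTGGGGATTTAGCTCA) stood, on either strand, in 115 of 33469 promoter windows of the same table, 0.344%. The gene was matched by name to BC1_Rn.

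Facts of the libraries bear on every value below. Repeat counts came to 1852900, 2027269 and 3374284 in the TDP-43 siRNA J2 libraries and to 9472224, 11657521 and 11048402 in their inputs. Among the tested names, 152, 155 and 58 had 0 counts in the J2 libraries and 0 had none in the inputs. At 10 to 100 CPM (counts scaled to library size, here with TMM factors) the median coefficient of variation was 50.9% in the J2 libraries and 6.88% in the inputs; above 1000 CPM it was 6.35% and 2.98%. Knockdown could be checked in poly(A) RNA, where Tardbp ran from 21.2 to 30.3 CPM with TDP-43 siRNA and from 141 to 165 CPM with scrambled siRNA; the immunoprecipitation table holds no gene counts. In the same poly(A) libraries the summed level of 7 astrocyte markers was 3760 to 4780 CPM with TDP-43 siRNA and 4240 to 5240 CPM with scrambled siRNA, against 111 to 135 and 125 to 163 CPM for 4 microglial markers, 69.8 to 93.6 and 91.6 to 130 CPM for 4 oligodendrocyte lineage markers, 34.9 to 45.9 and 11.8 to 23.2 CPM for 4 neuronal markers, mostly Tubb3 (33.1 to 43.9 and 10.4 to 20.6 CPM), and 663 to 906 and 897 to 1020 CPM for 3 fibroblast markers, nearly all of it Col1a1. The neuronal marker Rbfox3 was at 0 to 0.296 CPM with TDP-43 siRNA and at 0 to 0.261 CPM with scrambled siRNA. Gfap was the largest part of the astrocyte sum (2050 to 2970 CPM with TDP-43 siRNA, 1990 to 2650 CPM with scrambled siRNA). Aqp4 was lower with TDP-43 siRNA (420 to 460 against 802 to 921 CPM), as was Slc1a3 (515 to 635 against 774 to 960 CPM). Sox9 was higher (109 to 137 against 68.1 to 104 CPM), and the other astrocyte markers overlapped. The part of these markers in any result was not tested.

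Transposable elements made up most of the repeat counts in the J2 libraries. No gene counts were available for these libraries, so the share of all J2-bound RNA is unknown. Their share of all repeat counts was 94.02%, 94.2% and 97.2% in the TDP-43 siRNA J2 libraries and 52.3%, 55.9% and 53.6% in the inputs. SINEs held 50.6%, 51.2% and 51.8% in J2 and 27.1%, 28.1% and 27.4% in input. LINEs held 19.5%, 19.8% and 20.9% in J2 against 11.1%, 12.5% and 11.6% in input, and LTR elements 18.3%, 17.7% and 18.8% against 11.2%, 12.3% and 11.7%. As shares of transposable element counts alone the direction for LTR elements turned. They held 19.5%, 18.75% and 19.35% in J2 and 21.46%, 21.93% and 21.78% in input, and LINEs overlapped, at 20.7% to 21.5% in J2 and 21.2% to 22.4% in input. B1, ID, rodent ERV and rodent LINE-1 were lower in every J2 library than in every input on that scale, and B2 and B3 SINEs (14.31% to 15.01% in J2, 11.4% to 11.6% in input) and mammalian LINE-1 (6.66% to 6.89% in J2, 5.28% to 5.55% in input) higher. In the opposite direction, small structural RNAs held 2.17%, 1.34% and 0.712% of counts in J2 and 32.7%, 26.6% and 31.0% in input, which is 21.4-fold lower on average. Ribosomal RNA held 1.97%, 2.53% and 0.210% in J2 and 13.2%, 15.7% and 13.6% in input. Of 20 classes, 15 had a larger share in every J2 library than in every input library, 3 a smaller one and 2 overlapped. Shares within a library add up to a whole, so smaller shares of structural and ribosomal RNA enlarge the others. The 15 larger shares are therefore not separate results, and some turned when only transposable element counts were used. The two-sided exact permutation test gave p = 0.1 for each separated class, the smallest that 3 against 3 can give (adjusted p = 0.111). The name table gives no element lengths, so shares are shares of counts, not of molecules.

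**Figure D1:**
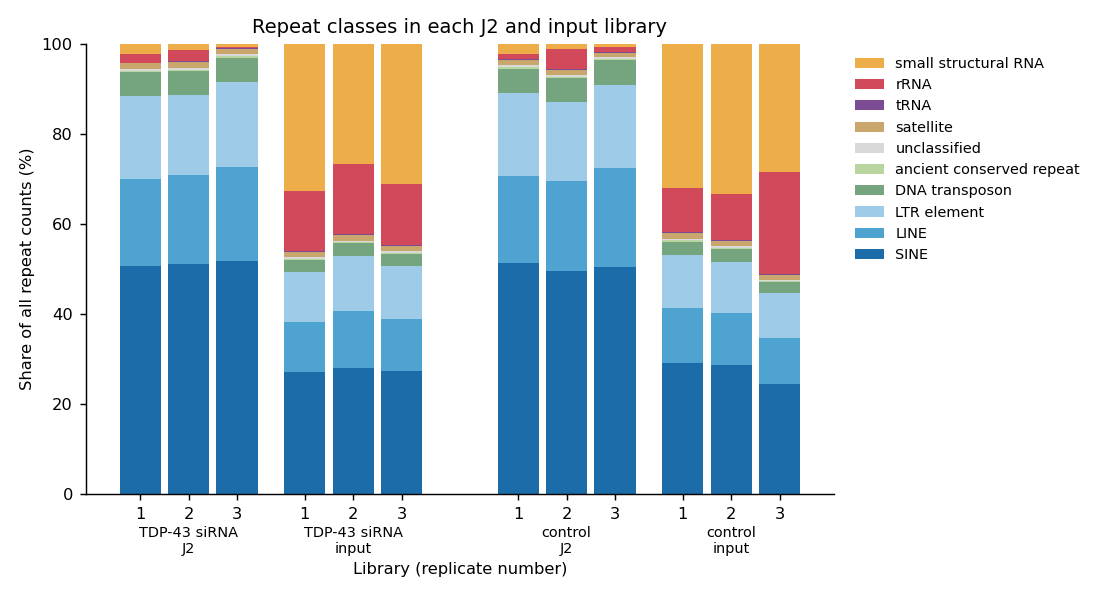
Share of all repeat counts (%, vertical axis) held by each repeat class in each of the 12 immunoprecipitation libraries (horizontal axis), J2 beside input for TDP-43 siRNA and for control. Transposable element classes (blue and green) fill 94.02% to 97.2% of the TDP-43 siRNA J2 bars and 52.3% to 55.9% of the input bars, where small structural RNA and rRNA take most of the remainder.

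With these abundant RNAs so much lower in J2, the scaling decides the sign of small changes. The values per name below use trimmed mean (TMM) factors, under which the median log2 ratio of all tested names was -0.04, so they say how a name was recovered relative to the bulk of repeat names. Scaling by library totals moved that median by 0.69 on the log2 scale. Under TMM, edgeR called 148 names higher in J2 than in input (12.6% of 1176) and 202 lower (17.2%), 29.8% in either direction, at an adjusted p under 0.05; with totals the split was 463 higher and 93 lower, and with upper-quartile factors 191 and 167. All 93 names lower with totals were among the 202, while 19 of the 202 were called higher. Of the calls, 36 had a fitted ratio at least 2-fold higher and 136 at least 2-fold lower, each tested against no change. J2 and input libraries did not overlap for 613 names (52.1%), 235 of them higher in J2.

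Calls were unevenly spread over abundance. Of 239 names under 10 CPM, 1 was called higher and 52 lower, and of 134 names over 1000 CPM, 52 were higher and 40 lower. All 3 J2 libraries were at 0 for 31 names, 30 of which were called lower. Such a name could pass the filter only through other libraries, and the inputs were deeper than the J2 libraries. The counts by abundance therefore cannot show how J2 recovery varied with abundance.

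**Figure D2:**
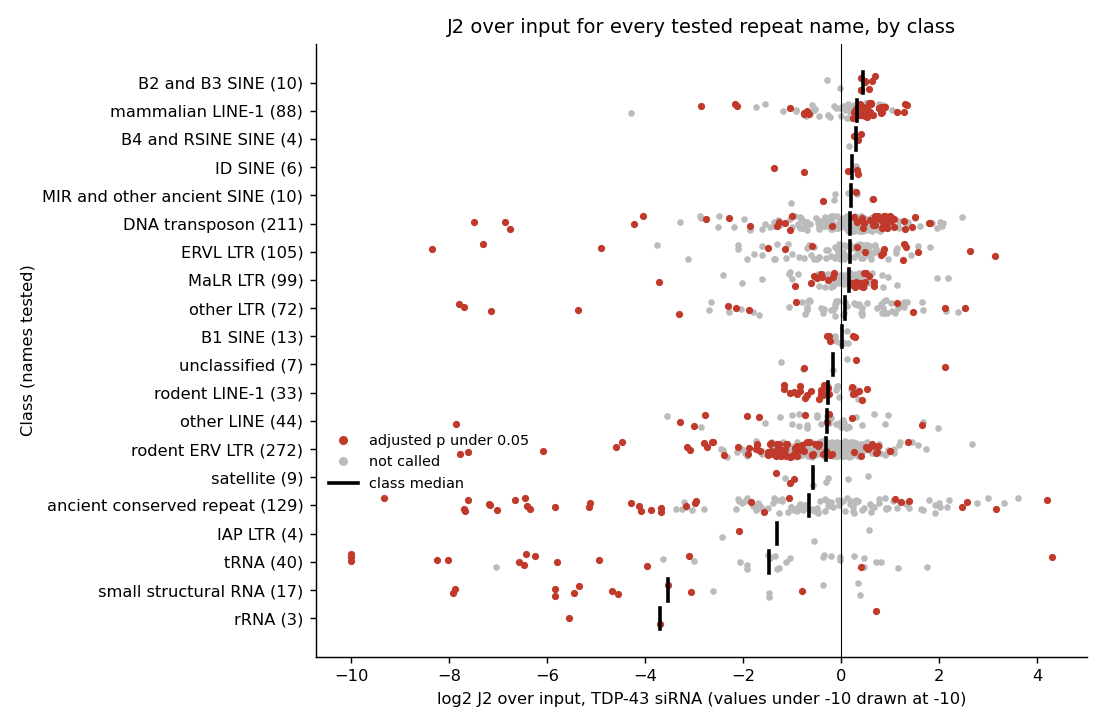
Log2 ratio of J2 over input with TDP-43 siRNA (horizontal axis, TMM-scaled, edgeR) for each of the 1176 tested names, in rows by class with the number tested; red points passed an adjusted p of 0.05 and black bars are class medians. The B2 and B3 row has its median furthest to the right and the rRNA, small structural RNA and tRNA rows have their medians furthest to the left; values under -10 are drawn at -10, and the fitted value of a name at 0 in every J2 library is not a bound.

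Of 17 tested small structural RNA names, 0 were higher in J2 and 11 were lower (7SK, 7SLRNA, U1, U2, U3, U4, U13, U17, HY1, HY3 and BC1_Rn), with a class median of -3.54 on the log2 scale, against -0.04 for all names. 7SK, the RNA that holds back the elongation factor P-TEFb, had 577, 396 and 177 CPM in J2 and 102510, 74905 and 90448 CPM in input. It was 234-fold lower under TMM (log2 -7.87, SE 0.46, edgeR adjusted p = 2.1e-07). With library totals the log2 ratios of 7SK, 7SLRNA and U1 were -7.17, -4.66 and -5.14. 7SLRNA, the scaffold of the signal recognition particle, had 12205, 6170 and 1646 CPM in J2 and 311184, 226294 and 281588 CPM in input (log2 -5.35, SE 0.83, edgeR adjusted p = 0.000412). J2 library 1 was its highest and library 3 its lowest, yet all 3 lay below every input; without J2 library 1 the log2 ratio was -6.13. U1, the RNA of the particle that marks 5′ splice sites, had 101, 166 and 105 CPM in J2 and 6637, 6712 and 7778 CPM in input (log2 -5.83, SE 0.49, edgeR adjusted p = 5.42e-06). The other splicing RNA named by the difference test, U4, was at 16.4, 24.4 and 19.2 CPM against 254, 184 and 260 CPM. HY1, a Y RNA that binds the Ro60 protein, had 7.995, 0 and 0.671 CPM in J2 and 165, 110 and 174 CPM in input (log2 -5.83, SE 0.94; -8.41 without J2 library 1 and -5.24 without J2 library 3).

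Not every structural name behaved this way. BC1_Rn had 3021, 2935 and 2584 CPM in J2 and 5165, 4709 and 4852 CPM in input. Its log2 ratio was -0.79 (SE 0.10, edgeR adjusted p = 0.000118), and -0.08 with library totals, which ended the call; its share of all counts was 0.388%, 0.368% and 0.342% in J2 and 0.390%, 0.392% and 0.383% in input. U6, the catalytic splicing RNA made by polymerase III, was picked after its values were seen, as the structural RNA highest in J2 relative to input at over 100 CPM. It had 311, 291 and 255 CPM in J2 and 217, 218 and 222 CPM in input, with no overlap, at log2 0.38 (SE 0.14, edgeR adjusted p = 0.0585, 0.043 with DESeq2 and 0.0341 in edgeR without J2 library 3). With library totals U6 was called higher (log2 1.08, edgeR adjusted p = 6.61e-05).

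Ribosomal RNA split by name. LSU-rRNA_Hsa, the large subunit RNA, had 14639, 18695 and 1284 CPM in J2 and 157292, 147030 and 142393 CPM in input (log2 -3.69, SE 0.83, edgeR adjusted p = 0.00545). SSU-rRNA_Hsa, of the small subunit, had 616, 1218 and 66.4 CPM in J2 and 17435, 41070 and 30043 CPM in input (log2 -5.55, SE 1.75, adjusted p = 0.0324 in edgeR). The third J2 library held far less of both than the other two, and the small subunit call was lost without any 1 of the J2 libraries (edgeR adjusted p = 0.056 to 0.0874) or without input library 2 or 3. 5S, the small ribosomal RNA made by polymerase III, went the other way, with 136, 227 and 236 CPM in J2 and 118, 121 and 123 CPM in input (log2 0.72, SE 0.20, edgeR adjusted p = 0.0174). That call was lost without J2 library 2 or 3 (edgeR adjusted p = 0.0547 and 0.0543) or without any 1 input library.

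**Figure D3:**
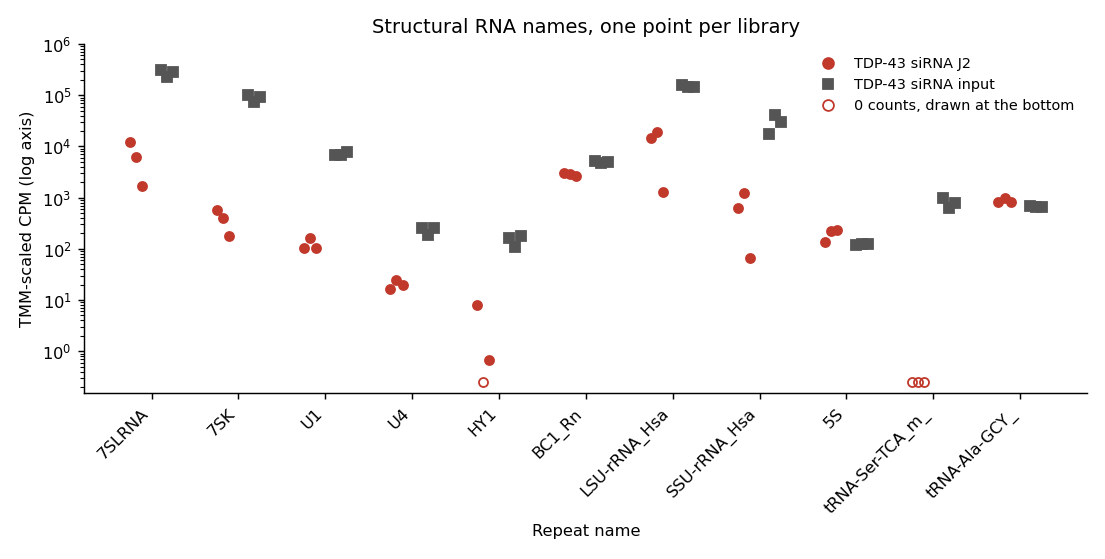
TMM-scaled CPM (vertical log axis) of 11 structural RNA names (horizontal axis) in the 3 TDP-43 siRNA J2 libraries (red circles) and the 3 input libraries (grey squares), 1 point per library, with open circles for 0 counts. 7SLRNA, 7SK, U1 and U4 lie far below their inputs in every J2 library, BC1_Rn lies within the same decade, and 5S and tRNA-Ala-GCY_ are higher in J2.

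Of 40 tested transfer RNA names, 2 were higher and 13 lower. Their summed share overlapped, at 0.183%, 0.210% and 0.168% of counts in J2 and 0.182%, 0.160% and 0.168% in input. tRNA-Ser-TCA_m_ had 0 counts in all 3 J2 libraries and 979, 637 and 780 CPM in input. Against a floor of 3 counts over the J2 group it was at least 2447-fold lower. tRNA-Leu-TTA_m_ (36.8, 27.3 and 36.6 CPM in input) and tRNA-Ser-TCG (34.8, 27.3 and 32.8 CPM) were also at 0 in J2, at least 104-fold and 98.0-fold lower. tRNA-Ala-GCY_ was higher, with 821, 996 and 813 CPM in J2 and 683, 646 and 653 CPM in input (log2 0.41, SE 0.08, edgeR adjusted p = 0.00243). The other higher name, tRNA-Leu-CTA, chosen after its values were seen, had the highest ratio of all tested names on few counts, with 10.1, 1.97 and 4.92 CPM in J2 and 0.140, 0.515 and 0.115 CPM in input (log2 4.31, SE 1.23, edgeR adjusted p = 0.0196). Its call was lost without any 1 input library (edgeR adjusted p = 0.054 to 0.114). Rodent ID elements descend from an alanine tRNA, so these names may share reads, which was not tested.

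No satellite name was called higher in J2 relative to the bulk of names (0 of 9), and 3 were called lower; with library totals 4 were higher and 1 lower. RNSAT1c had 2673, 2730 and 2056 CPM in J2 and 6897, 5693 and 6074 CPM in input (log2 -1.32, SE 0.14, edgeR adjusted p = 2.69e-05). RatSatRep1 (-1.04) and RatSatRep2 (-0.96) were also called lower, but with totals they stood at -0.34 and -0.26 and did not pass.

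Among SINEs, the tRNA-derived B2 and B3 family was higher in J2 for most names. Of its 10 names 8 were higher in J2 and 0 lower, with a median log2 ratio of 0.45, and 8 or more were higher under each scaling tried. B3, which held the largest share of J2 counts of any name, had 51427, 55837 and 54657 CPM in J2 and 39182, 37846 and 38293 CPM in input (log2 0.49, SE 0.04, edgeR adjusted p = 5.42e-06). As a share of all repeat counts B3 was 6.60%, 7.005% and 7.24% in J2 and 2.96%, 3.15% and 3.02% in input. B2_Rn had the family's highest ratio, with 1301, 1513 and 1317 CPM in J2 and 912, 776 and 858 CPM in input (log2 0.70, SE 0.09). B2_Rat4 followed at 0.62 (SE 0.06) and B2_Rn1 at 0.56 (SE 0.10), and B3A was at 0.42 (SE 0.04). Adjacent names among these 5 differed by less than the sum of their SEs. The 2 names not called were B2_Rn2 (-0.02) and B2_RnY (-0.29, edgeR adjusted p = 0.119, and 0.0372 without J2 library 3).

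The B4 and RSINE family gave 3 higher of 4. B4A had 28243, 29387 and 29830 CPM in J2 and 21934, 21773 and 22050 CPM in input (log2 0.41, SE 0.04), RSINE1 stood at 0.34 and B4 at 0.26. ID_B1, a fusion of ID and B1 sequence, was higher in all 3 J2 libraries (36764, 35287 and 32735 CPM) than in the inputs (32184, 29903 and 30896 CPM) at log2 0.17, with an edgeR adjusted p = 0.073 (0.0388 without J2 library 3, and 0.0221 with DESeq2).

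ID elements split between names. ID4_ (log2 0.36, SE 0.05), ID2 (0.32, SE 0.06) and ID4 (0.14, SE 0.05) were called higher, ID4 at an edgeR adjusted p = 0.0458 that every omission of 1 library took past 0.05. ID_Rn1, a name of the rat lineage, had 1586, 1729 and 1614 CPM in J2 and 4424, 4038 and 4171 CPM in input. It was 2.56-fold lower (log2 -1.36, SE 0.06, edgeR adjusted p = 2.67e-08), and its share of counts was also below every input, at 0.203%, 0.217% and 0.214% in J2 and 0.334%, 0.336% and 0.329% in input. ID_Rn2 stood at -0.76 (SE 0.10) and at -0.06, not called, with library totals. ID itself, at 0.31, did not pass in edgeR (adjusted p = 0.0934) and did with DESeq2 (0.0387) and with library totals (log2 1.014).

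The 7SL-derived B1 family was recovered about as the bulk of names, with 2 of 13 names higher, 3 lower and a median of 0.01. PB1, a proto-B1 element, had 2659, 2760 and 2667 CPM in J2 and 2286, 2135 and 2201 CPM in input (log2 0.29, SE 0.05, edgeR adjusted p = 0.00145), and B1F1 stood at 0.25 (SE 0.07; edgeR adjusted p = 0.0184, 0.0617 without J2 library 1, and also lost without input library 2 or 3). B1_Rn had 15423, 15516 and 14614 CPM in J2 and 18458, 17242 and 17764 CPM in input (log2 -0.23, SE 0.05, edgeR adjusted p = 0.00384), beside B1_Mur3 at -0.28 and B1_Mur4 at -0.25. These 3 lost their calls with upper-quartile factors, and with library totals all 13 B1 names were higher. The ancient tRNA-derived MIR, shared by all mammals, had 9280, 9391 and 8986 CPM in J2 and 5915, 5827 and 5890 CPM in input (log2 0.65, SE 0.04, edgeR adjusted p = 7.4e-07), and MIRb stood at 0.30 (SE 0.04).

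**Figure D4:**
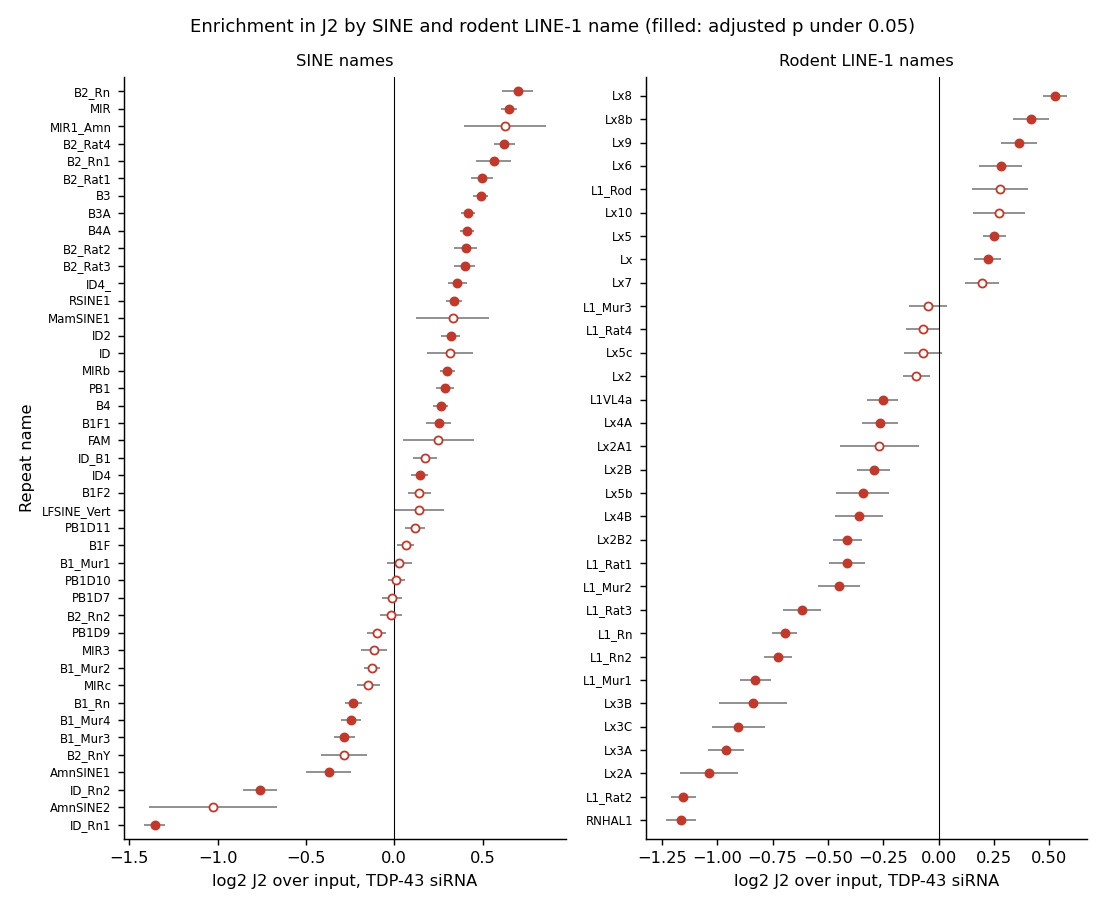
Log2 ratio of J2 over input with TDP-43 siRNA (horizontal axis; bars are 1 SE of the edgeR fit) for 43 SINE names (left) and 32 rodent LINE-1 names with an SE under 1 (right), each ordered by ratio; filled points passed an adjusted p of 0.05. MIR and most B2 and B3 names lie at the top of the SINE panel and ID_Rn1 at the bottom, with B2_Rn2 and B2_RnY below 0. In the LINE-1 panel Lx8, Lx8b and Lx9 lie at the top and L1_Rat2 and RNHAL1 at the bottom.

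LINE-1 names differed between subfamilies. Names of the rat lineage, L1_Rat and L1_Rn, were lower in J2 relative to the bulk in 5 of 6 cases and higher in 0 (median log2 -0.66), and of the related Lx2 to Lx4 names 0 of 11 were higher and 8 lower (median -0.36). With library totals the medians were 0.05 and 0.34, with 1 higher and 1 lower of 6 and 5 higher and 0 lower of 11. The older rodent names Lx and Lx5 to Lx10 gave 6 higher and 1 lower of 10 (median 0.26). Among the mammalian names, which predate the rodents, 8 of 9 L1MA, 6 of 7 L1MB, 6 of 11 L1MC and 4 of 6 L1MD names were higher and 0 of these lower, and the medians of these 4 groups stayed above 0 under each scaling tried. The other mammalian groups went both ways, with 6 higher and 5 lower of 27 L1ME names (median 0.21) and 5 higher and 3 lower of 22 L1M1 to L1M8 names (median -0.06).

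L1_Rat2 had 1886, 1775 and 1985 CPM in J2 and 4286, 4090 and 4186 CPM in input (log2 -1.15, SE 0.06, edgeR adjusted p = 4.65e-08). RNHAL1, a LINE-1 derivative, was 2.24-fold lower (-1.17, SE 0.07) and Lx2A was at -1.04 (SE 0.13), a call that was lost with library totals (-0.34). Lx8 had 9775, 10891 and 11157 CPM in J2 and 7254, 7455 and 7379 CPM in input (log2 0.53, SE 0.06, edgeR adjusted p = 2.45e-05), with Lx8b at 0.42 and Lx9 at 0.36. Of the mammalian names, L1ME3A had 619, 661 and 621 CPM in J2 and 250, 258 and 264 CPM in input (log2 1.30, SE 0.12, edgeR adjusted p = 8.77e-06). L1MA10 stood at 1.35 (SE 0.23), with 271, 234 and 134 CPM against 80.9, 83.4 and 85.7 CPM. Among mammalian names called lower and over 100 CPM in input, L1ME5 had the lowest ratio, at 42.1, 62.1 and 59.3 CPM in J2 and 235, 252 and 245 CPM in input (-2.16, SE 0.18). In all, rodent LINE-1 names gave 6 higher and 18 lower of 33 and mammalian ones 36 higher and 8 lower of 88. With library totals the rodent split turned to 18 higher and 2 lower (median log2 0.42, against -0.27 under TMM). The mammalian split was then 57 higher and 1 lower.

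LTR elements of rodent retroviruses had more names called lower than higher under TMM. Of 272 tested names 11 were higher and 65 lower (median -0.30), with 0 higher and 22 lower of 55 internal parts and 11 higher and 43 lower of 217 terminal repeats; with library totals the split was 85 higher and 22 lower. The internal part RNLTR17-int had 37.0, 2.75 and 17.4 CPM in J2 and 177, 155 and 174 CPM in input (log2 -3.15, SE 0.60, edgeR adjusted p = 0.00197; -3.97 without J2 library 1). IAP elements, retroviral elements known to be mobile in mouse, had 4 tested names. RNIAP1a had 45.9, 29.5 and 75.3 CPM in J2 and 218, 216 and 210 CPM in input (log2 -2.09, SE 0.31, edgeR adjusted p = 0.000325). RNIAP1b, at 8.84, 31.5 and 56.3 CPM in J2 and 45.9, 46.3 and 49.4 CPM in input, overlapped (-0.54, edgeR adjusted p = 0.452), and the terminal repeats RNIAP1aLTR (0.58) and RNIAP1bLTR (-2.44) did not pass (edgeR adjusted p = 0.449 and 0.0802; for RNIAP1bLTR 0.0183 with DESeq2 and 0.0422 in edgeR without J2 library 3).

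The non-autonomous MaLR names gave 15 higher (15.2%) and 10 lower (10.1%) of 99. ERVL names gave 11 higher (10.5%) and 6 lower (5.71%) of 105. Among all tested names 12.6% were higher and 17.2% lower, so the higher shares of both classes were near that of all names. With library totals the splits were 63 higher and 1 lower for MaLR, and 50 higher and 3 lower for ERVL. Within MaLR, MTE2a had 2967, 3178 and 2934 CPM in J2 and 2130, 2187 and 2177 CPM in input (log2 0.48, SE 0.05, edgeR adjusted p = 2.69e-05). ORR1A3 (-0.94, SE 0.11) and ORR1A2 (-0.62, SE 0.06) were lower, as was the ERVL repeat MT2B1 (-0.60, SE 0.06); with library totals these stood at -0.23, 0.08 and 0.10. LTR82A, at -1.14 (SE 0.23), stood at -0.44 with totals. MER70C, an ERVL repeat, had 82.9, 70.8 and 41.4 CPM in J2 and 7.83, 5.15 and 8.95 CPM in input (log2 3.15, SE 0.67, edgeR adjusted p = 0.00397).

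DNA transposons, which have left no mobile copies in rodents, gave 33 higher (15.6%) and 14 lower (6.64%) of 211 (median 0.19). Among all tested names 12.6% were higher and 17.2% lower. With library totals the split of DNA transposons was 92 higher and 8 lower. Kanga1 had 145, 103 and 112 CPM in J2 and 41.5, 41.6 and 43.7 CPM in input (log2 1.504, SE 0.26, edgeR adjusted p = 0.000944), and Arthur1A stood at 1.81 (SE 0.38). X32_DNA had 0.421, 5.50 and 4.25 CPM in J2 and 60.4, 51.4 and 59.4 CPM in input (-4.03, SE 0.57). The ancient conserved repeats, sequences kept across distant vertebrates, gave 7 higher (5.43%) and 26 lower (20.2%) of 129. With library totals the split was 22 higher and 20 lower. Of the 129 names, 9 were at 0 in every J2 library, and only 5 averaged at least 100 CPM in J2 or input. UCON58 had 45.4, 20.4 and 7.60 CPM in J2 and 1.82, 1.55 and 0.574 CPM in input (log2 4.20, SE 0.93; 3.39 without J2 library 1). UCON28a had 64.0, 77.8 and 85.9 CPM in J2 and 11.2, 12.6 and 14.6 CPM in input (2.57, SE 0.30, edgeR adjusted p = 5.13e-05). MER136 had 0 counts in J2 and 18.04, 11.5 and 13.3 CPM in input, at least 43.7-fold lower. UCON65 (3.16, SE 0.83) and EUTREP2 (2.48, SE 0.66) of the same class were also called higher. So were the LTR names MER70B (2.64, SE 0.70), MER92D (2.53, SE 0.61) and LTR106_Mam (2.13, SE 0.50), and the unclassified IMPB_02 (2.12, SE 0.50). The fitted ratio of each was at least 4-fold, but the test was against no change, not against 4-fold. The EUTREP2 and MER70B calls were lost without any 1 input library (edgeR adjusted p = 0.0503 to 0.0593), and the UCON65 call without input library 1 or 2 (0.0704 and 0.0522). The LINE name L5 stood at 1.65 (SE 0.34).

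In control astrocytes 144 names were higher in J2 (12.2%) and 205 lower (17.4%). Of the names higher with TDP-43 siRNA, 106 were also higher in control (71.6% of the TDP-43 siRNA list and 73.6% of the control list), and of the lower names 145 were shared (71.8% and 70.7%); 0 were called in opposite directions. Transposable elements made up 1.76 times their input share with TDP-43 siRNA and 1.79 times in control. The difference of enrichments, TDP-43 siRNA minus control, was called for 0 of 1176 names by edgeR's interaction test (0%; lowest adjusted p = 0.327), with 88 names (7.48%) at an unadjusted p under 0.05. DESeq2 called 10, and leaving out a single library gave 0 to 10 (10 without TDP-43 siRNA J2 library 3, 7 without control J2 library 1, 2 without TDP-43 siRNA J2 library 1, and 0 for the other 9). Control input library 3 stood apart, with 105649 CPM of SSU-rRNA_Hsa against 922 and 3910 CPM in the other control inputs; without it the count was also 0.

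The interval of that difference varied between names. The difference was 0.10 for B3 (95% interval -0.03 to 0.22), 0.11 for MIR (-0.02 to 0.25), 0.03 for Lx8 (-0.14 to 0.20) and -0.08 for L1_Rat2 (-0.25 to 0.10), on the log2 scale. It was wider for structural RNAs, at 0.43 for 7SK (-0.63 to 1.49), 0.30 for 7SLRNA (-1.83 to 2.42) and -0.47 for LSU-rRNA_Hsa (-2.77 to 1.83). For ID_Rn1 it was 0.19 (0.01 to 0.37; edgeR adjusted p = 0.637).

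The names with the smallest p of the difference were RLTR40, MER123, UCON48, UCON63, U4, Eutr16, MTE2a and RLTR31M. RLTR40, a rodent retroviral LTR, had 647, 594 and 513 CPM in J2 and 381, 366 and 373 CPM in input with TDP-43 siRNA (log2 0.65, SE 0.09), against 324, 361 and 354 CPM in J2 and 340, 351 and 344 CPM in input in control (0.00). The difference was 0.64 (95% interval 0.36 to 0.93), with an edgeR adjusted p = 0.327, 0.0228 with DESeq2 and 0.0186 in edgeR without TDP-43 siRNA J2 library 3. RLTR31M had 43.3, 25.9 and 27.3 CPM in J2 and 51.8, 47.6 and 53.8 CPM in input with TDP-43 siRNA, against 6.17, 1.13 and 1.23 CPM in J2 and 31.7, 37.4 and 36.8 CPM in input in control; the adjusted p of its difference was 0.327 in edgeR, 0.0131 with DESeq2 and 0.0158 in edgeR without control J2 library 1. U4 differed by -1.47 (-2.25 to -0.70), with 44.7, 32.7 and 57.6 CPM in control J2, and MTE2a by 0.28 (0.12 to 0.44), and both had an edgeR adjusted p = 0.327; with DESeq2 that of U4 was 0.0228. UCON48 was at 12.6, 1.57 and 2.68 CPM in TDP-43 siRNA J2 and at 0 in all 3 control J2 libraries, with inputs of 3.78 to 5.67 and 5.71 to 7.18 CPM. MER123, Eutr16 and UCON63 each had 2 of 3 TDP-43 siRNA J2 libraries at 0.

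**Figure D5:**
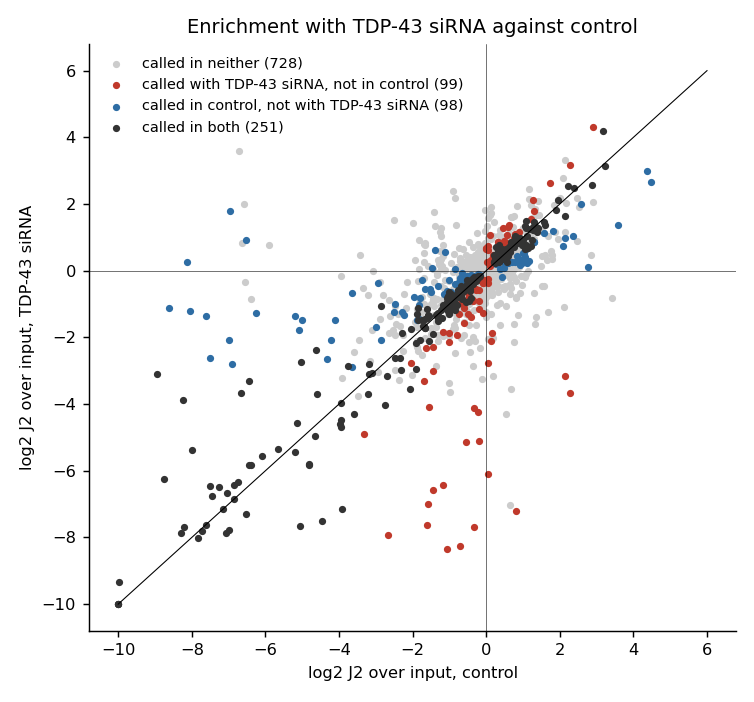
Log2 ratio of J2 over input with TDP-43 siRNA (vertical axis) against control (horizontal axis) for the 1176 tested names, coloured by call at an adjusted p of 0.05, with the line of equal ratios; values under -10 are drawn at -10. The 251 names called in both lie along the line, and 99 names were called with TDP-43 siRNA and not in control, and 98 the reverse; fitted values of names at 0 in every J2 library are not bounds.

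Input and J2 libraries were also set against control directly. With edgeR, 2 names differed between the J2 libraries (0.17%) and 0 between the inputs (0%; 17 at an unadjusted p under 0.05). The 2 names were RLTR40 (log2 0.76, edgeR adjusted p = 0.00461) and RLTR31M (3.51, edgeR adjusted p = 0.0493), both higher in the TDP-43 siRNA J2 libraries than in the control J2 libraries.

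Poly(A) RNA, which the enrichment did not use, showed few repeat names changed by TDP-43 siRNA against scrambled siRNA: 1 of 1137 was higher (0.088%) and 2 lower (0.176%), and none of these 3 was called in J2 against input. They are MLT1H, a MaLR element (80.7, 99.996 and 104 CPM with TDP-43 siRNA, 41.8, 40.0 and 41.8 CPM with scrambled siRNA; log2 1.20, SE 0.14), ORSL, a DNA transposon (7.35, 6.33 and 6.39 CPM against 64.1, 30.6 and 26.5 CPM; -2.59, SE 0.32), and RNIAP1b (8.04, 6.63 and 9.40 CPM against 39.0, 18.3 and 27.4 CPM; -1.81, SE 0.27), with edgeR adjusted p of 0.00713, 0.00713 and 0.0207. Of the 146 J2-higher names tested in poly(A) RNA 0 changed, with a median of 0.10, and of the 191 J2-lower names 0 changed, with a median of -0.11, against 0.01 for all 1137 names. Scrambled replicate 1 had far fewer repeat counts than the other scrambled libraries; without it 5 names were higher and 5 lower of 1156 (0.433% each), and 3 of the 193 J2-lower names were higher and 1 lower. Without scrambled replicate 2, 3 names were higher and 38 lower.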

How the data were processed

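The authors deposited whole-number counts per repeat name for 12 immunoprecipitation libraries, and counts per repeat name and per gene for 9 poly(A) libraries, not normalized. Trimmomatic, Bowtie2, TopHat2, DESeq2 and the build rn6 are named in the submitters' processing notes; which program counted the reads, how it treated strand and multiply mapped reads, and which repeat annotation it used is not given in the sources used here. Reads may therefore be shared between related repeat names, and values of closely related names are uncertain.

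Names were kept by edgeR's filterByExpr. All 12 immunoprecipitation libraries entered 1 quasi-likelihood fit (edgeR 4.0.16, limma 3.58.1, R 4.3.3) with TMM factors, 4 group means and no other covariate, and p-values were adjusted by Benjamini-Hochberg over all tested names. CPM are TMM-scaled. The poly(A) fit used all 9 repeat libraries, including 3 given TDP-43 siRNA and ATP. DESeq2 1.42.0 was an alternative. The fits were also run on simulated counts, with changes set in the TDP-43 siRNA J2 group only. The simulation did not model the loss of abundant structural RNAs from J2, so it cannot speak to the choice of scaling. Class shares used raw counts and an exact permutation test (scipy 1.17.1). A floor of 3 counts over the J2 group stood in for groups at 0. Counts carry counting error beside library spread.

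Classes were assigned by repeat name. Named repeats were the largest rises and falls past the threshold overall and within classes, fixed well-known members, and the 8 smallest p-values of the difference; not all are printed. The members and lists were chosen with earlier results of these data known. Among gene rows, 26 whose symbols had become dates were left out. RefSeq GRCr8 served only for the Bc1 sequence.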

Additional observations from a re-analysis of the deposited data

Results flagged for a closer look

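UCON63, an ancient conserved repeat, had every J2 library below every input library with TDP-43 siRNA and every J2 library above every input library in control. It had 0, 0 and 0.224 CPM in J2 and 0.979, 0.928 and 1.26 CPM in input with TDP-43 siRNA, against 4.63, 3.39 and 1.23 CPM in J2 and 0.898, 0.623 and 0.508 CPM in input in control. The difference of the log2 ratios, TDP-43 siRNA minus control, was -5.30 (95% interval -8.10 to -2.50; edgeR adjusted p = 0.327). The TDP-43 siRNA J2 libraries held 0, 0 and 1 counts of it. J2 against input passed with TDP-43 siRNA (edgeR adjusted p = 0.0349) and not in control (0.0572); with TDP-43 siRNA the call was lost with DESeq2 (0.134), with library totals (0.0788), without J2 library 1 or 2 and without any 1 input library (0.0554 to 0.137).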

How the results depend on the processing

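With library totals 463 names were higher and 93 lower, and with a minimum log2 change of 1 the counts were 3 and 62. Leaving out 1 library gave 97 to 166 higher and 144 to 268 lower. With totals the sign turned for B2_RnY (0.42), B2_Rn2 (0.69), B1_Rn (0.47), B1_Mur3 (0.42), B1_Mur4 (0.46), ORR1A2 (0.08), MT2B1 (0.10), RNIAP1b (0.17) and RLTR31M (0.035). B2_Rn2, near 0, also turned with upper-quartile factors (0.088), a stricter filter (0.0039) and ranged from -0.080 to 0.016 without 1 library, and UCON48 turned with the replicate block (-0.30) and ranged from -1.11 to 0.68 without 1 library. The cause was not tested. Same-numbered TDP-43 siRNA J2 and input libraries correlated at 0.078, 0.052 and -0.0079. The wide scatter of the J2 libraries could hide a shared source, so these values do not settle whether the numbers pair libraries. With the replicate block 112 names were higher and 138 lower. The difference of enrichments gave 10 calls with DESeq2 and 0 to 10 without 1 library. Poly(A) calls were 0 higher and 0 lower with totals, 0 and 1 with gene-table totals, and 0 to 5 and 0 to 38 without 1 library. Of transposable element counts alone, 5 classes were separately higher and 7 lower (without 1 library and over all repeat counts, 15 to 16 and 3 to 4). There the share of J2 minus input was -1.95 percentage points for B1, -0.593 for ID, -0.39 for MaLR, -0.0931 for ancient conserved repeats, -0.238 for other LINE, -0.0697 for other LTR, -2.14 for rodent ERV, -1.81 for rodent LINE-1, -0.667 for all LINE and -2.52 for all LTR. J2 libraries were shallower than inputs, which limits names under 100 CPM.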
